A study of Mus musculus with 37 samples.

Results

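The 10 genes described here encode matrix proteins and proteins of stromal and progenitor cells, measured in single cells sorted from fat. They are Col1a1, Col1a2, Col3a1, Dcn, Dpt, Mfap5, Fstl1, Sparc, Gsn and Pdpn, 10 of 23947 genes in the table. They were chosen by their measured levels in cells 7 and 27, with the values in the other cells known. Every contrast of cells 7 and 27 with the rest is therefore a description and carries no test. The samples were 37 cells from the epididymal white adipose tissue, a visceral fat depot, of male C57BL/6J mice. All mice were on a high-fat diet with 60% of its energy from fat, 20% from carbohydrate and 20% from protein. The tissue was treated with collagenase for 30 min, and the labels call every cell an adipose tissue macrophage. The labels give no age, sorting gate, time on the diet or animal for any cell. All cells therefore formed 1 group that counts as 1 sample, and nothing was compared with lean mice.

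Fibrous matrix is built mainly by fibroblasts and, in fat, by the stromal progenitors from which new adipocytes arise. Collagen chains are folded in the secretory pathway, trimmed outside the cell and crosslinked, and small proteoglycans and glycoproteins set how the fibrils assemble. Macrophages mostly take up and degrade matrix, although they also secrete some matrix-associated proteins. Values are FPKM, fragments scaled for transcript length and library size, so levels of different genes can be compared. Detection means a value of at least 1 FPKM. A value of exactly 0 is described as listed at 0, since it can be a failed estimate.

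All 10 genes were detected in both cells 7 and 27, and they fell into 3 kinds by what the other 35 cells held. Col1a1, Col3a1 and Mfap5 were detected in no other cell. Dcn, Col1a2, Fstl1 and Pdpn were detected in 2 to 4 other cells, each time at 34.3 FPKM or less. Dpt, Sparc and Gsn reached 604, 1431 and 2161 FPKM elsewhere, in cells that also held macrophage transcripts. For 8 of the 10 genes the lower of cells 7 and 27 was above every other cell, the exceptions being Dpt and Gsn. Of the 9996 genes detected in at least 1 cell, 211 (2.11%) met the same rule and 1574 were detected in both cells 7 and 27. The stricter rule of detection in cells 7 and 27 and nowhere else was met by 3 of the 10 genes and by 1.29% of all tested. With the highest other cell under 3% of the mean of cells 7 and 27, the numbers were 6 genes and 1.44%. The genes nearest that limit were Col1a2 at 1.59% inside it and Pdpn at 3.21% outside it. Because these cells chose the genes, nothing is read from the differences between these shares.

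Promoter windows of 7 of the 10 genes were found in RefSeq (build GRCm38.p6, not the mm9 build of the expression values). Each window runs from 250 bases before to 50 after the annotated start of the gene. Those of 2 collagen genes that were high together in cells 7 and 27, and that of Dpt, which was also high in another cell, are shown 5′ to 3′ on the strand of the gene. Capitals mark matches, on either strand, to 3 promoter motifs: CCAAT, then the G-rich box spelled GGGCGG, and the box spelled TATAAA.
Col1a2, chr6:4505368-4505667, + strand: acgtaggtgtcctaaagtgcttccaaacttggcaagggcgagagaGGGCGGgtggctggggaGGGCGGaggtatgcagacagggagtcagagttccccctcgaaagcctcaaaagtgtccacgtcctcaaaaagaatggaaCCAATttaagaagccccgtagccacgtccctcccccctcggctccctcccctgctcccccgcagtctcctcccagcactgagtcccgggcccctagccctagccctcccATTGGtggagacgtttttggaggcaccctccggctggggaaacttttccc
Col3a1, chr1:45311288-45311587, + strand: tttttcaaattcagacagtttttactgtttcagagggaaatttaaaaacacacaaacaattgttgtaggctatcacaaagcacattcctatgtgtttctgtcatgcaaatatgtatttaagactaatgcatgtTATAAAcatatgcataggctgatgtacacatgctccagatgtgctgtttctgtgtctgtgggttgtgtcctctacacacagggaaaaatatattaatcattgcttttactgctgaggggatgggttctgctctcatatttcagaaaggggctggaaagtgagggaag
Dpt, chr1:164796413-164796712, + strand: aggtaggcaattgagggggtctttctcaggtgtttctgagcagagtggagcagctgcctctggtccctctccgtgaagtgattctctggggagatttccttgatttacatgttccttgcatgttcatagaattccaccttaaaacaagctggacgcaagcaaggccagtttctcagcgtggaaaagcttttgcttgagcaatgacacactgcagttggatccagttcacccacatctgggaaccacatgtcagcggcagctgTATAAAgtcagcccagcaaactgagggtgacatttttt
The Col1a2 window held 2 matches to CCAAT and 2 to GGGCGG and was 61% G or C. The Col3a1 window, at 37.7% G or C, held 1 match to TATAAA, upstream of the annotated start, and none to the others. The Dpt window, at 48.7%, also held 1 match to TATAAA, downstream of the annotated start. Of 32851 windows of this length, 37.4% held CCAAT, 35.7% GGGCGG and 13.6% TATAAA, and the median was 52.7% G or C. The AP-1 site TGANTCA, found in 7.81% of windows, had no match in the 9 windows of the 7 genes searched. The 2 collagen genes therefore share no motif among those searched, and a match in such a window is a description of letters only.

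**Figure D1:**
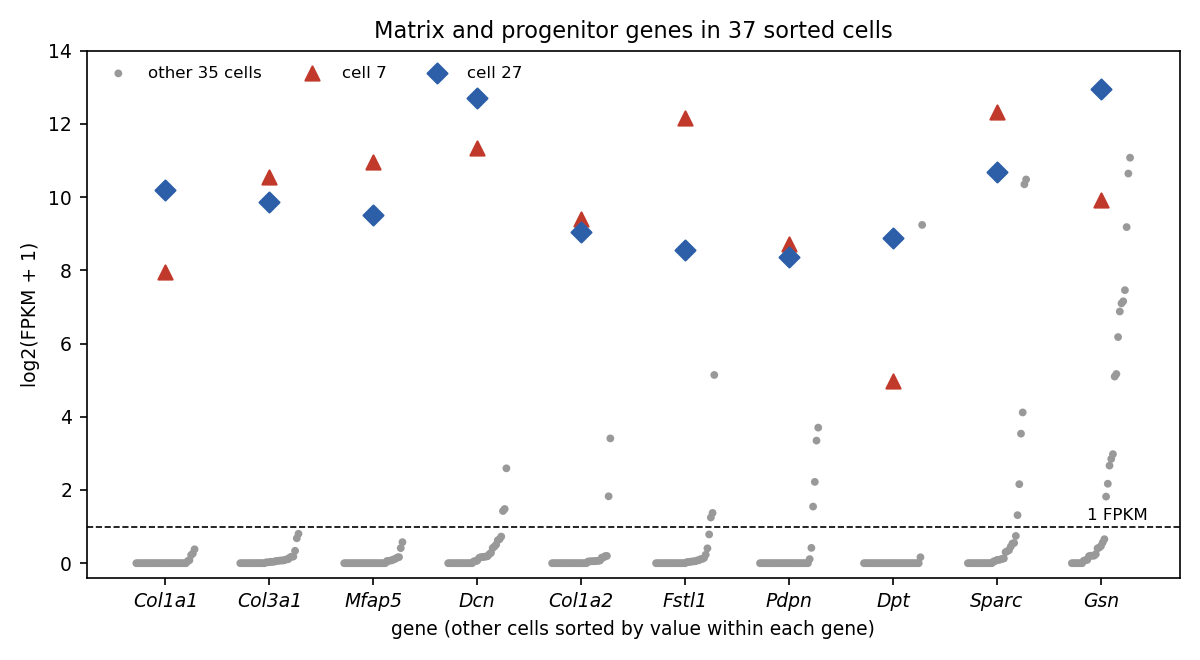
Level of each of the 10 genes as log2(FPKM + 1) on the vertical axis, in cell 7 (triangle), cell 27 (diamond) and the other 35 cells (grey points, sorted by value within each gene); the dashed line marks 1 FPKM. Grey points stay under the line for Col1a1, Col3a1 and Mfap5, and reach or pass the level of cell 7 or cell 27 for Dpt and Gsn.

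Of the 3 fibrillar collagens, Col1a1 and Col3a1 were detected in cells 7 and 27 only and Col1a2 in 2 further cells. Col1a1, the main chain of type I collagen, stood at 248 FPKM in cell 7 and 1180 FPKM in cell 27. In the other 35 cells its lowest and median values were listed at 0 and its highest was 0.302 FPKM. Col3a1, the chain of type III collagen, was at 1487 and 931 FPKM, against a median of 0.0189 and a highest value of 0.746 FPKM. Both genes were thus separated from the rest of the cells with no overlap. For 0 of 35 detections, a limit set at 3 cells of 35 is 8.57%. The upper end of the exact 2-sided 95% interval is 10.003%, and both cover the sampling of cells only. The 35 cells are those left after cells 7 and 27, which chose the genes, were set aside. Their values were also known when the genes were chosen, so these cells are not independent of that choice. These limits, and the intervals given below for other genes, therefore describe those 35 cells only. They estimate no share among all sorted cells. Col1a2, which pairs with Col1a1 in type I collagen, was at 678 and 532 FPKM. Outside these cells Col1a2 was detected in cell 28 at 9.62 FPKM and in cell 23 at 2.55 FPKM. Neither of those cells held Col1a1 or Col3a1 at 1 FPKM, so the 2 chains of type I collagen were detected together in cells 7 and 27 only.

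Dcn, the small leucine-rich proteoglycan decorin that coats collagen fibrils, had the highest mean of the 10 genes in cells 7 and 27. It stood at 2582 and 6654 FPKM, the 25th and 14th highest of all genes in those cells. In the other 35 cells Dcn had a median of 0.0514 FPKM and was detected in 3, cells 8, 24 and 26, at 5.03, 1.79 and 1.69 FPKM. The highest of these was 0.109% of the mean of cells 7 and 27. Dpt, dermatopontin, a small protein that binds decorin and helps collagen assemble, behaved differently. It was at 30.3 FPKM in cell 7 and 468 FPKM in cell 27, but at 604 FPKM in cell 17. The only other cell with a value was cell 31 at 0.119 FPKM, and 33 cells were listed at 0. Dpt was therefore detected in 1 of 35 cells outside the pair (2.86%, Clopper-Pearson 95% interval 0.0723% to 14.9%, which covers the sampling of cells only). That cell held neither Dcn nor any of the 3 collagens at 1 FPKM.

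Mfap5, a microfibril protein that binds fibrillin, was at 1988 and 728 FPKM in cells 7 and 27. Its highest value elsewhere was 0.489 FPKM, in cell 9. Fstl1, a secreted follistatin-like glycoprotein, was at 4610 FPKM in cell 7 and 376 FPKM in cell 27. It reached 34.3 FPKM in cell 31, 1.59 FPKM in cell 2 and 1.37 FPKM in cell 9. Cells 7 and 27 thus lay well above the rest for both genes, but for Fstl1 the gap was set by the much lower value in cell 27.

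Sparc, a secreted calcium-binding protein that binds collagen, was the most abundant of the 10 in cell 7. It stood at 5125 FPKM there and at 1646 FPKM in cell 27. In the other 35 cells its median was 0.0639 FPKM, with 1431 FPKM in cell 2, 1305 FPKM in cell 9 and at most 16.4 FPKM in the remainder. Sparc was detected in 6 of these cells (17.1%, 6.56% to 33.6%). Cells 2 and 9 had FPKM sums of 1115910 and 618604, above the median of 318998 of the 35 cells. With every cell scaled to a sum of 1000000, Sparc was at 2110 in cell 9 and 2021 in cell 27, so on that scale cell 27 was no longer above every other cell.

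Gsn, the actin-severing protein gelsolin, which is also secreted, was the most widespread of the 10 genes. It stood at 964 FPKM in cell 7 and 7923 FPKM in cell 27, where it was the most abundant of the 10. In the other 35 cells the median was 0.383 FPKM and 15 cells had it (42.9%, 26.3% to 60.6%). Cells 26, 2 and 14 were highest, at 2161, 1601 and 580 FPKM, and cells 22, 17, 1 and 9 held 117 to 175 FPKM. The values formed a broad range from listed at 0 in 7 cells up to those of cells 7 and 27, with cells 26 and 2 above cell 7. Cell 26 had the second highest FPKM sum, and with the sums made equal Gsn was at 1775 in cell 26 against 2070 in cell 7. Hence the place of cell 7 relative to cells 26 and 2 differed between the scales.

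Pdpn, podoplanin, a mucin-like surface glycoprotein of stromal and lymphatic cells, was at 420 and 329 FPKM in cells 7 and 27. It was detected in cells 0, 5, 13 and 2 at 12.03, 9.19, 3.66 and 1.92 FPKM, and 29 of the 35 cells were listed at 0. These 4 values lay far below cells 7 and 27, with no overlap. Prox1, Flt4 and Ccl21a, markers of lymphatic endothelium, another source of podoplanin, were listed at 0 in all 37 cells, while Lyve1, the remaining marker of that list, was listed at 0 in cells 7 and 27 and detected in 3 other cells, up to 293 FPKM.

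**Figure D2:**
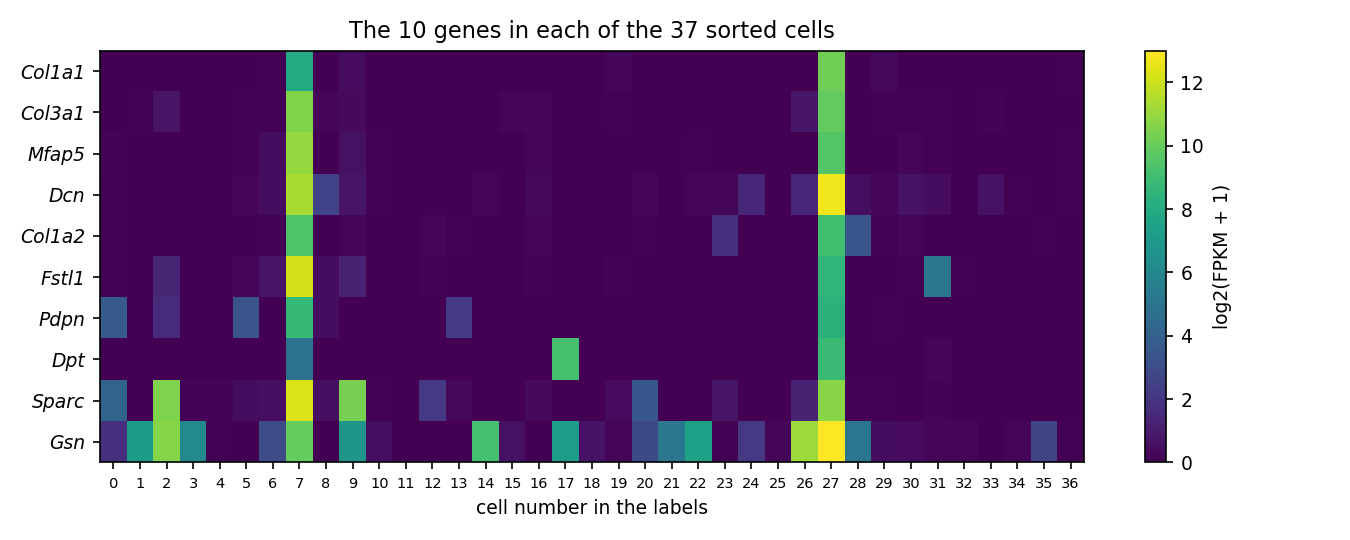
Level of each gene (rows) in each cell (columns, by cell number) as log2(FPKM + 1), dark for low and yellow for high. Columns 7 and 27 are filled for all 10 genes, while Gsn, Sparc and Dpt also appear in scattered other cells.

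Few other cells held several of the 10 genes. Of the 35 cells, 14 had none at 1 FPKM, 13 had 1, 4 had 2, 3 had 3 and cell 2 had 4. Cell 2 held Fstl1, Sparc, Gsn and Pdpn, and cells 0, 9 and 26 held 3 each. The FPKM of the 10 genes added up to 3.89% of the total in cell 7 and 2.55% in cell 27, but to at most 0.272% in any other cell. Low values below detection were common. Above 0.001 FPKM, cells 0, 6, 9, 29 and 31 each had values for 8 of the 10 genes, and only cell 11 had none.

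The labels call all cells macrophages, and cells 7 and 27 went against this. The 18 macrophage markers added up to 377 and 214 FPKM in cells 7 and 27, against 11392 to 57336 FPKM in the other 35. By number detected they were not set apart, with 13 and 15 of the 18 markers against 13 to 18 in the other cells. For 17 of the 18 both cells were below the median of the others, Spi1 being the exception, and for 5 (Lyz2, Tyrobp, Fcer1g, Laptm5 and Ctss) both were below every other cell. Lyz2, the myeloid lysozyme, was at 34.7 and 33.97 FPKM against a median of 4141 and a lowest value of 57.3 FPKM. Tyrobp, a signalling adaptor of myeloid receptors, was at 12.1 and 21.3 FPKM against a lowest value of 278 FPKM. Mean values of cells 7 and 27 were 0.481% to 1.97% of the median of the others for 13 of the 18 markers, and 4.23% to 65.0% for Cd14, Cd68, Itgam, Aif1 and Spi1. Cd68, a lysosomal glycoprotein, was at 141 FPKM in cell 7 and 12.2 FPKM in cell 27.

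Of 14 fibroblast and progenitor markers that are not among the 10 genes, cell 7 had 8 and cell 27 had 10 at 1 FPKM or more, and no other cell had more than 2. Among other cell types, endothelial markers gave 0 of 9 in cell 7 and 1 of 9 in cell 27 (Pecam1 at 4.94 FPKM). Mural markers gave 1 of 8 in cell 7 (Des at 103 FPKM) and mesothelial markers 1 of 8 in cell 27 (Wt1 at 37.6 FPKM). No adipocyte, T cell, B cell, neutrophil or lymphatic marker was detected in either cell. Of the 7 adipocyte markers, 5 were listed at 0 in all 37 cells, Plin4 was at most 0.128 FPKM, in cell 27, and Cidec was detected in cell 20 alone, at 214 FPKM. Cells 7 and 27 also had the most genes detected, 3204 and 3054, against 1224 to 2769 in the others. Whether either chamber held more than 1 cell was not tested.

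**Figure D3:**
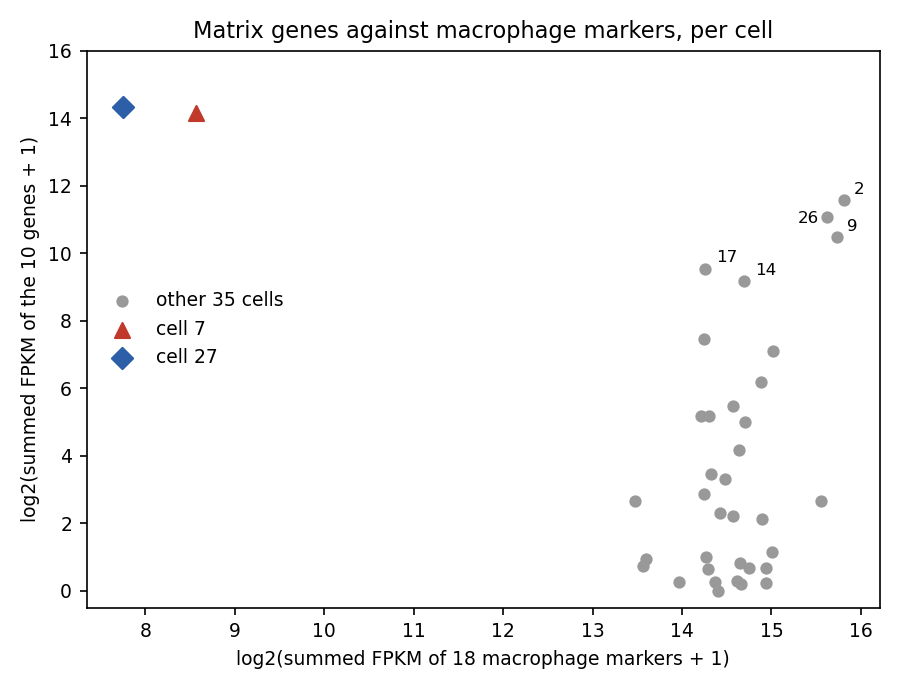
Each cell by the summed FPKM of 18 macrophage markers (horizontal) and of the 10 genes (vertical), both as log2(sum + 1). Cells 7 and 27 lie at the upper left, alone. Numbers mark the other 5 cells with the highest sums of the 10 genes. On the horizontal axis cells 14 and 17 lie among the remaining cells, and cells 2, 9 and 26 lie to the right of all of them.

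The 5 cells outside the pair with the highest sums of the 10 genes were cells 2, 26, 9, 17 and 14. The summed macrophage markers of cells 17 and 14 were within the range of the other cells, and those of cells 2, 9 and 26 were the highest of all cells. Cell 17, with Dpt, had 17 of the 18 markers detected and a sum of 19632 FPKM. Cells 2 and 9, with Sparc, had 18 and 15 markers and the 2 highest sums, 57336 and 54410 FPKM, in cells with high FPKM totals. Cell 26, with the highest Gsn of these, had 15 markers and 50342 FPKM, and cell 14 had 18 markers and 26556 FPKM. As a share of the FPKM sum, the markers made up 5.14% in cell 2, 8.80% in cell 9, 4.13% in cell 26, 5.65% in cell 17 and 7.31% in cell 14. The 35 cells ranged from 2.61% to 11.9% with a median of 7.31%, so on that scale cells 2, 17 and 26 were below the median. Fibroblast and progenitor markers numbered 2 in cells 2 and 26, 1 in cell 17 and 0 in cells 9 and 14. Outside the pair these genes were thus found in cells whose share of macrophage transcripts was in the range of the rest. What else was captured with those cells was not tested.

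Only Sparc and Gsn were detected in at least 5 of the 35 cells, so only these were compared with each other and with the remaining genes across cells. Their Spearman rho was -0.03 over 35 cells. Sparc was detected in 6 and Gsn in 15 of these, so the ranks mostly order values below detection. This rho therefore cannot show that the genes are unrelated. The Pearson r of log2 values was 0.41, and cells 2 and 9, the highest in Sparc, held Gsn at 1601 and 117 FPKM. Among 4369 genes, the most alike to Gsn were Hsp90b1, a chaperone of the endoplasmic reticulum, Rps28, a ribosomal protein, and Ctsd, a lysosomal protease, at rho 0.53, 0.53 and 0.51. For Sparc they were Zswim6, Gm6402 and Cd72, a surface receptor, at rho 0.58, 0.55 and 0.54, but the Pearson r of Sparc with Zswim6 was -0.02. With the 2 most extreme Gsn cells left out, the Pearson r of Gsn with Rps28 went from 0.51 to 0.24. These are modest values picked as the highest of 4369. Gsn itself had a rho of 0.34 with the FPKM sum, 0.20 with the number of genes detected and 0.37 with the macrophage marker sum. For Sparc these were -0.04, -0.19 and 0.32. The Pearson r of log2 values with the FPKM sum was 0.38 for Sparc and 0.45 for Gsn. Without the 2 cells with the most extreme sums it was 0.63 and 0.46. Whether such differences between cells bear on the likeness of genes was not tested.

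Cells 7 and 27 differed from each other in the balance of these genes. Col1a1, Dcn, Dpt and Gsn were higher in cell 27, by 4.75-fold, 2.58-fold, 15.5-fold and 8.22-fold. The other 6 genes were higher in cell 7, with Fstl1 12.2-fold, Sparc 3.11-fold, Mfap5 2.73-fold, Col3a1 1.60-fold, Pdpn 1.28-fold and Col1a2 1.27-fold higher. The FPKM sum of cell 27 was 1.75 times that of cell 7. Scaled to the sum, the same 4 and 6 genes were higher in each cell, and the ratios ran from 1.47 for Dcn to 21.4 for Fstl1. Each is 1 profile without a replicate, so no error can be given for these ratios.

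**Figure D4:**
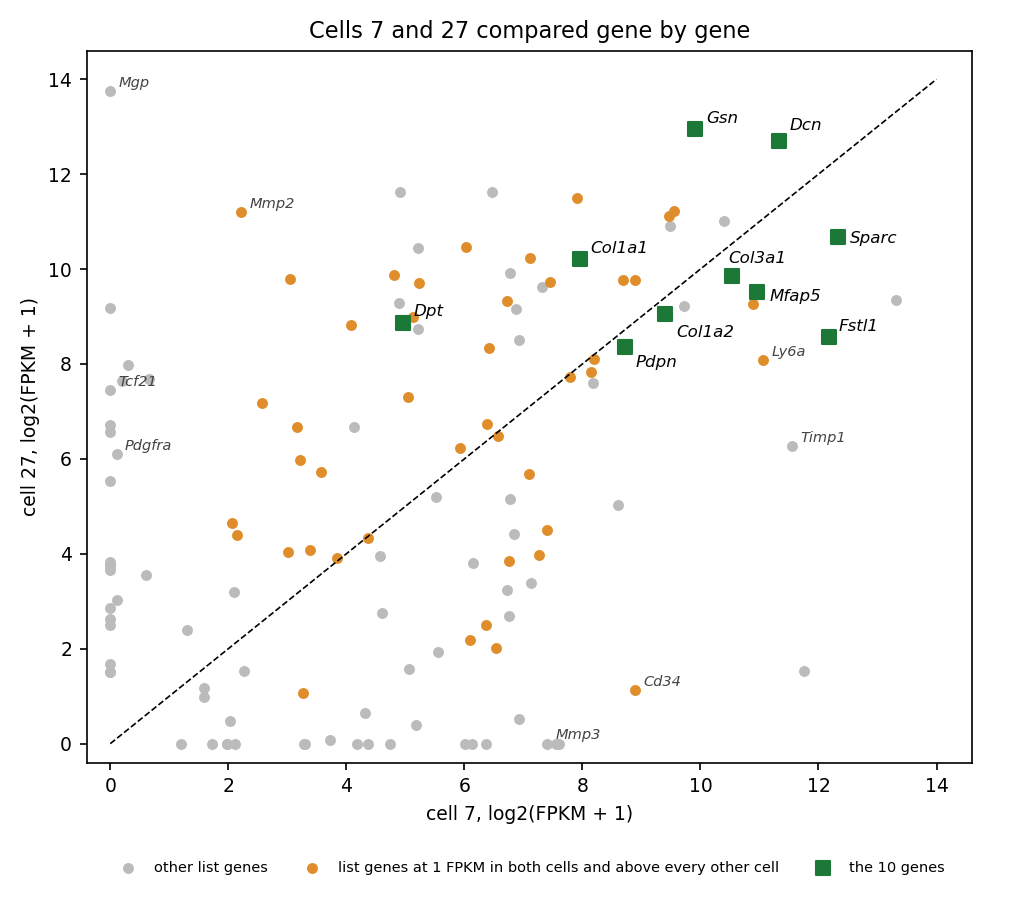
Level in cell 7 (horizontal) against cell 27 (vertical), as log2(FPKM + 1), for the 10 genes (squares) and for genes of 9 related lists detected in either cell (circles, orange where both cells reached 1 FPKM and exceeded every other cell). The dashed line marks equal levels; Gsn, Dcn, Col1a1 and Dpt lie above it and Fstl1, Sparc and Mfap5 below.

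Related genes were followed in 9 lists of 163 genes in all, of which 44 were above every other cell in both cells 7 and 27, against 211 of 9996 tested. Of the list genes 77 were detected in both cells 7 and 27, against 1574 of the 9996. The 163 include genes detected in no cell, whereas the 9996 do not. The median difference of cells 7 and 27 from the median of the others, on the log2(FPKM + 1) scale, was 3.78 over the list genes detected anywhere and 0.19 over all genes tested. The lists were drawn up for their roles in stroma, with the contents of these cells known, so their counts describe these cells only. Other collagens were the most complete. Of 14, 10 were detected in both cells and 9 were above every other cell, with a median difference of 6.53. Col4a1, a basement membrane collagen, was at 472 and 866 FPKM, and Col6a1 and Col6a2, of beaded-filament type VI collagen, at 291 and 272 FPKM and at 281 and 225 FPKM. Col4a2 was at 137 and 1200 FPKM. Col8a1, Col12a1 and Col16a1 were listed at 0 in all cells. Col4a1, Col4a2, Col6a3 and Col14a1 were each detected in 1 other cell, and no other cell had more than 1 of the list.

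Collagen folding and crosslinking genes were shared more widely. Of 17, 8 were detected in both cells and 5 were above every other cell. Loxl1, a crosslinking oxidase, was at 220 and 212 FPKM with at most 0.462 FPKM elsewhere, and Pcolce, which enhances procollagen trimming, at 82.4 and 105 FPKM. Serpinh1, the collagen chaperone HSP47, was at 27.1 and 941 FPKM and reached 6.96 FPKM elsewhere. The folding enzymes Ppib and P4hb, which serve other secreted proteins too, were detected in 26 and 23 of the other cells, and the hydroxylase genes P4ha1 and Plod1 in 13 and 12. Plod1 was listed at 0 in cells 7 and 27 and reached 1560 FPKM in cell 9.

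Among 33 proteoglycans and matrix glycoproteins, 14 were detected in both cells and 10 were above every other cell. Bgn, biglycan, a relative of decorin, was at 745 and 2387 FPKM, and Lum, lumican, at 173 and 847 FPKM. Efemp1, an elastic fibre glycoprotein, was at 104 and 642 FPKM and Nid1, a basement membrane linker, at 84.4 and 323 FPKM. Others were found beyond the pair. Ecm1 was detected in 18 other cells, up to 2373 FPKM. Fn1, fibronectin, was detected in 8 and was highest of these in cell 9, at 376 FPKM. Mgp, matrix Gla protein, was at 13835 FPKM in cell 27, listed at 0 in cell 7, and detected in 6 other cells, and Efemp2 was detected in 4.

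Proteases and their inhibitors were mostly not confined to the pair. Of 17, 9 were detected in both cells and 4 were above every other cell. Mmp2 and Mmp14, a gelatinase and its membrane-bound activator, were at 3.63 and 2345 FPKM and at 7.29 and 883 FPKM. Adamts5, a proteoglycan-cleaving protease, was at 19.7 and 19.1 FPKM. The inhibitor Timp2 was detected in 32 other cells, the lysosomal protease Ctsl in 28 and Mmp19 in 8. Timp1 was at 3003 and 76.6 FPKM and was detected in 6 other cells, the highest being cell 17 at 1536 FPKM, the cell with Dpt.

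Surface proteins of progenitors divided in the same manner. Of 18, 8 were detected in both cells and 5 were above every other cell. Ly6a, the antigen Sca-1 of stromal progenitors, was at 2140 and 269 FPKM, and Cd55, a complement regulator, at 59.9 and 74.0 FPKM. Ly6c1 was at 1896 and 615 FPKM, although it can share reads with Ly6c2. Integrin beta 1 (Itgb1), Cd9, Cd81 and Icam1 were detected in 29, 26, 23 and 8 other cells. Thy1 and Nt5e were listed at 0 in all cells. Of 17 transcription factors, 4 were above every other cell. These were Prrx1, a mesenchymal homeobox gene, at 136 and 50.5 FPKM, Ebf2 at 8.32 and 62.2 FPKM, Ebf1 at 7.11 and 15.4 FPKM and Twist1 at 67.0 and 3.54 FPKM. Cebpb, Tcf4, Klf4 and Cebpa were detected in 33, 24, 21 and 12 of the other cells.

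Some genes set the 2 cells apart. Of the list genes, 77 were detected in both cells, 22 in cell 7 but not cell 27 and 22 in cell 27 but not cell 7. Over all genes, 3204 were detected in cell 7, 3054 in cell 27 and 1574 in both. Detection in only 1 of the 2 cells was thus common over all genes and not particular to the lists. The following examples were chosen after their values were seen. Pdgfra, a growth factor receptor of progenitors, was at 0.0781 FPKM in cell 7 and 67.6 FPKM in cell 27, and Pdgfrb was listed at 0 and at 11.7 FPKM. Tcf21, a factor of visceral fat progenitors, was listed at 0 and at 173 FPKM. Cd34, another progenitor antigen, had the opposite order, with 473 FPKM in cell 7 and 1.19 FPKM in cell 27. Pparg, the master regulator of adipocyte formation, was at 186 FPKM in cell 7 and listed at 0 in cell 27, and Mmp3, a stromelysin, at 168 FPKM and listed at 0. A value listed at 0 in 1 cell does not show that the cell lacked the transcript.

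**Figure D5:**
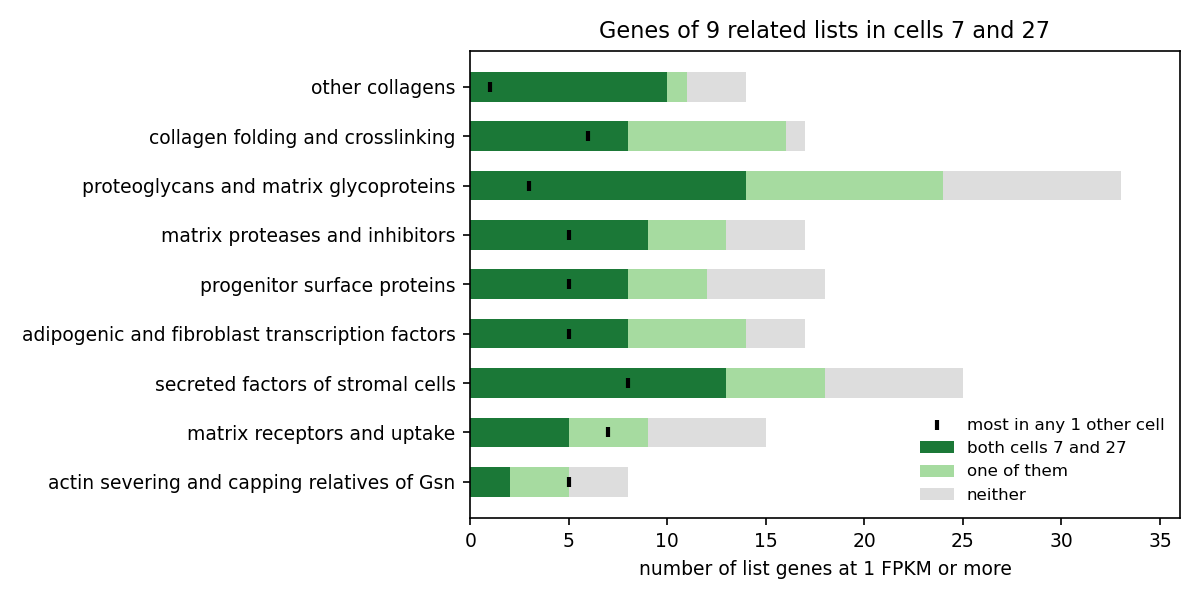
Number of genes of each list detected in both cells 7 and 27 (dark green), in 1 of them (light green) or in neither (grey); the black tick is the highest number in any 1 of the other 35 cells. The tick lies inside the dark bar for the upper 7 lists and beyond it for matrix receptors and for relatives of Gsn.

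Some receptors for matrix and some relatives of Gsn were widely detected outside cells 7 and 27, and others in few or none of the other cells. Itga1, Itga2, Clec1b, Scin, Avil and Vil1 were listed at 0 in all cells. Of 15 matrix receptors and uptake genes, 2 were above every other cell, the collagen receptor Ddr2 (3.44 and 20.05 FPKM) and the collagen uptake receptor Mrc2 (4.96 and 143 FPKM). The scavenger receptor Cd36, the hyaluronan receptor Cd44, the proteoglycan Sdc4 and Mrc1, the mannose receptor, were detected in 32 to 34 of the other 35 cells. The median difference of this list was -0.84. None of the 8 relatives of Gsn was above every other cell in both. The median difference was 1.90, toward cells 7 and 27, over the 5 detected in any cell. Of these, 2 were detected in both cells 7 and 27 and 3 in only 1 of them. The median therefore does not show a shift of these genes in both cells. Cfl1, cofilin, Capg, a macrophage capping protein, Dstn and Flii were detected in 34, 27, 19 and 9 of the other cells.

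Genes beside the 10 in the genome were also examined, using the gene order of GRCm38.p6. Of 20 neighbouring coding genes, 18 were in the table and 2 were above every other cell in both cells 7 and 27, against 2.11% of all genes tested. The 18 include genes listed at 0 in all cells, which the genes tested do not. Both of the 2 are matrix genes of the lists above, and a link with position was not tested. These were Lum, next to Dcn, and Col5a2, next to Col3a1, with 153 FPKM in cell 7, 14.8 FPKM in cell 27 and 0.0337 FPKM in the next highest cell. Sgca, next to Col1a1, was listed at 0 in all cells, and Atox1, next to Sparc, was at 2076 and 1923 FPKM but reached 2401 FPKM elsewhere.

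Over all genes, the 10 that stood farthest above the other 35 cells included 3 of those described here. By the difference in log2(FPKM + 1) between the lower of cells 7 and 27 and the highest other cell, Col3a1, Mfap5 and Dcn ranked 2nd to 4th at 9.06, 8.93 and 8.74. Serping1, the C1 inhibitor of complement, was 1st at 9.12, with 708 and 2226 FPKM. The others were Igfbp6, which binds insulin-like growth factors, at 8.38, Col6a1 at 8.03, Fxyd1, a regulator of the sodium pump, at 8.01, the complement protease C1s1 at 7.94, Col4a1 at 7.78 and Gpx8, a peroxidase of the endoplasmic reticulum, at 7.70. Col1a1 was 11th, Col1a2 37th, Pdpn 51st, Fstl1 76th and Sparc 198th of 211.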

How the data were processed

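RNA of 37 single cells was measured after capture on a Fluidigm C1 and Nextera XT library preparation, per the labels. The values in the 1 table are FPKM, which the authors deposited; the tools listed in the submitters' processing notes are STAR and Cuffnorm, with mm9 as build. Tool versions and gene annotation were not given in the sources used here. This table holds 23947 genes and no fragment counts, so depth is unknown and no count test was run; the number of genes detected and the FPKM sum stand beside results. Doublets were not called, as callers work on counts. Values below 0.001 FPKM are numerical remnants and were taken as absent where "above 0.001 FPKM" is stated.

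Python 3.11.15 with pandas 2.3.3, numpy 2.4.6, scipy 1.17.1 and matplotlib 3.10.9 was used; calls were tested on simulated data. Detection was 1 FPKM or more, log2 values used a pseudocount of 1 FPKM, and shares carry exact 95% intervals. With 1 group and no animal named there is no p-value. The 10 genes and all lists were chosen with earlier results of these data known. Beside the 10 genes, the text names the 10 genes farthest above the other cells, the 3 genes most alike to Sparc and to Gsn, and from each list up to 4 genes above every other cell and up to 4 detected in the most other cells; other genes named were chosen after their values were seen. Of the list and marker genes, C1s, Trbc2, Igkc, Ighm and Ly6g were not matched by symbol, and 1 list gene is not reported here. Alternatives were other confinement rules, scalings, thresholds, pseudocounts and sets of cells.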

Additional observations from a re-analysis of the deposited data

How the results depend on the processing

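The count of 8 genes above every other cell was 3 when no other cell could reach 1 FPKM, and 6 to 9 under the other 5 alternatives; scaling to the cell sum kept 8 but took Gsn in and Sparc out, and scaling to the upper quartile left both out. Over all genes the count of 211 became 129 when no other cell could reach 1 FPKM, 1494 when 1 of cells 7 and 27 sufficed, and 37 among genes detected in at least 5 cells, a filter that removes genes found in the pair alone. Of the list genes, 44 became 84 when 1 cell sufficed. The rho of Gsn and Sparc of -0.03 became 0.41 as Pearson r, 0.13 over all 37 cells, 0.15 in cells 20 to 36 and -0.22 after leaving out the 2 cells with the most extreme Gsn; the cause was not tested. Of 134 further values for single genes and lists under an alternative, 105 were classed as unchanged and 29 as moved. Most of these values are counts, which cannot change sign. The log2 differences of cells 7 and 27 from the other cells all kept their sign. Taking cell 7 or cell 27 alone could not move such a difference, since each lies within the spread of the pair around its own mean. The 105 therefore include values that could not have moved, and no robustness is read from that number. At 0.1 FPKM Dcn was detected in 17 of the 35 cells, Sparc in 13, Gsn in 25, Col3a1 in 6 and Mfap5 in 4, so how confined these genes are depends on the threshold. Fragment counts per cell are unknown, which limits what a value listed at 0 can show.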

Other observations

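Secreted factors of stromal cells were not described above. Of 25 such genes in the table, 13 were detected in both cells 7 and 27 and 5 were above every other cell, with a median difference of 6.45 on the log2(FPKM + 1) scale. Besides Serping1 these were Igfbp6, at 413 and 872 FPKM, Igfbp7, at 239 and 2891 FPKM, Igfbp5, at 15.98 and 448 FPKM, and the complement component C3, at 64.5 and 1417 FPKM. Chemokine genes overlapped with the other cells. Ccl2, which draws in monocytes, was at 10159 FPKM in cell 7, its highest value of all, and 655 FPKM in cell 27, and was detected in 23 other cells up to 2358 FPKM. Cxcl1 was at 1342 and 2077 FPKM and was detected in 19 other cells up to 1770 FPKM. Igf1, by contrast, was detected in 24 other cells up to 502 FPKM and was at 3.27 and 8.10 FPKM in cells 7 and 27.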
